A study of Homo sapiens with 12 samples.

Results

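The nuclear genes that encode subunits of the mitochondrial respiratory chain were examined in SNU308, a human gallbladder cancer cell line. The set was a fixed list of 55 genes, chosen by name with earlier results of these data known, of the 60617 genes in the files. It held 25 genes of complex I, 4 of complex II, 7 of complex III, 11 of complex IV and 8 of complex V. Each symbol matched 1 Ensembl identifier, and all 55 were among the 17620 genes that passed the filter on low counts.

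The respiratory chain sits in the inner mitochondrial membrane. Complex I takes electrons from NADH and complex II takes them from succinate. Both pass them by way of ubiquinone to complex III, and cytochrome c carries them on to complex IV, which reduces oxygen. Complexes I, III and IV pump protons, and complex V, the ATP synthase, uses the gradient to make ATP. Most subunits are encoded in the nucleus and imported. A small hydrophobic core is encoded by mitochondrial DNA, so complexes I, III, IV and V are built from the products of both genomes.

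RNA-seq was done on 12 samples, 4 in each of 3 groups. The control group (NTC) received a non-targeting siRNA, and the other groups received siCEACAM6#2 or siCEACAM6#3, which target CEACAM6, a cell surface adhesion molecule. Each siRNA was used at 25 nM, and RNA was taken on day 3. All samples came from the same cell line, labelled wild type, and all were transfected, so untransfected cells were not part of the comparison. The labels name Oligofectamine as the reagent and the study's methods name RNAiMAX. The samples of a group are separate experiments per the series description. The p-values measure the spread between these samples only.

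The total estimated count per sample ran from 21799476 to 22059456. CEACAM6, the targeted gene, was present at 524, 569, 596 and 619 CPM (counts scaled to library size with TMM, the trimmed mean of M values) in the NTC samples. It was at 353, 343, 286 and 329 CPM with siCEACAM6#2 and at 423, 386, 424 and 438 CPM with siCEACAM6#3. No siRNA sample overlapped the NTC samples. The fitted changes were -43.3% and -27.5% (limma-voom, adjusted p = 2.71e-05 and 0.0151), so the transcript was lowered but far from absent. Of 8 epithelial markers, all were above 1 TPM (abundance scaled for transcript length and for depth) in at least 1 sample, led by KRT19. Endothelial, leukocyte, fibroblast and hepatocyte markers summed to at most 5.58 TPM per list in any sample. The 4 endothelial markers, led by VWF, had summed levels of 2.12 to 2.72 TPM in the control samples. These were 1.57 to 2.03 TPM for siCEACAM6#2 and 2.09 to 2.92 TPM for siCEACAM6#3. VWF was lower with siCEACAM6#2 than in NTC (log2 fold change -0.44, adjusted p = 0.0419, limma-voom). CDH5 and the epithelial marker MUC1 were higher with siCEACAM6#3 than with siCEACAM6#2 (1.31 and 0.53, adjusted p = 0.0160 and 0.0247, limma-voom). In such bulk samples, fewer cells of a kind and less RNA per cell cannot be told apart.

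One library stood apart. In siCEACAM6#3 replicate 2, 39 of the 55 members (70.9%) had their lowest value of the 12 samples, against 15.9% of all genes tested. This library also had the largest share of counts from mitochondrially encoded genes, 15.3%. The share was 11.8% to 12.9% in the NTC group. It was 12.2% to 13.3% for siCEACAM6#2 and 12.5% to 14.6% in the other siCEACAM6#3 samples. The main medians, counts and log2 fold changes that involve siCEACAM6#3 are therefore also given from a fit without this library. Because the low values of the members picked it out, higher medians without it follow from that choice. Leaving out siCEACAM6#3 replicate 1 instead gave a median log2 fold change of the members of -0.08 for siCEACAM6#3 versus NTC.

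The sequences that the groups turn on are the siRNA targets, both in the 3' untranslated region of CEACAM6 (GRCh38, chromosome 19, gene 41750977 to 41772211, plus strand). That of siCEACAM6#2 lies at 41771369 to 41771389 and that of siCEACAM6#3 at 41771611 to 41771631. Capitals mark the 7 bases at positions 14 to 20 of the target, which pair with the seed of the guide strand and which other transcripts may share.
siCEACAM6#2: cagccatgcaatgCCAAATAa
siCEACAM6#3: ctcctaatagtcaTACTAGTa
No member transcript held either full target. The 7-base site of siCEACAM6#2 occurred in the 3' untranslated region of 5 members (ATP5MC3, NDUFA4, NDUFB5, NDUFS1 and UQCRFS1), 9.09% of 55, against 15.6% of 13750 tested genes. The site of siCEACAM6#3 occurred in UQCRB and UQCRFS1, 3.64% of the members against 6.63% of tested genes. The members had shorter 3' untranslated regions, with a median of 193 bases against 1283 for tested genes. None of these members passed the test with the siRNA whose site it held. Their log2 fold changes lay between -0.07 and 0.05 for siCEACAM6#2. For siCEACAM6#3 they were 0.07 (UQCRB, a small subunit of complex III) and -0.04 (UQCRFS1). In the fit without siCEACAM6#3 replicate 2 these became 0.15 (UQCRB, adjusted p = 0.433, limma-voom) and 0.006 (UQCRFS1).

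The first question was how abundant the subunit transcripts were. Levels of different genes are compared here in TPM, which allows for length. In NTC samples the members ran from 41.1 ± 2.38 TPM (SD, n = 4) for NDUFA6, an accessory subunit of complex I, to 1182 ± 37.1 TPM for COX6A1, a small subunit of complex IV. The highest member was thus 28.7 times the lowest. The median of the members was 220 TPM, while the median of all genes tested was 8.44 TPM. All 55 members were in the top 20% of tested genes by TPM and 50 were in the top 10%.

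Levels differed between complexes. The median was 153 TPM in complex I, 177 in complex II, 240 in complex III, 476 in complex IV and 273 in complex V. Within complex I the highest member was NDUFV2, an iron-sulfur subunit of the module that binds NADH, at 460 ± 13.6 TPM. In complex II it was SDHC, a membrane anchor, at 234 ± 10.8 TPM, and the lowest was SDHA, the flavin subunit that oxidises succinate, at 64.7 ± 1.04 TPM. In complex III, UQCRC2, a core protein of the matrix side, was at 336 ± 25.0 TPM and UQCRFS1, the Rieske iron-sulfur protein, at 42.2 ± 1.86 TPM. Subunits of the same complex thus differed by 3.62-fold in complex II and by 11.7-fold in complex IV.

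In complex IV the lowest member was NDUFA4, a subunit first assigned to complex I, at 101 ± 9.11 TPM. In complex V, ATP5F1B, the catalytic beta subunit, was at 791 ± 39.7 TPM and ATP5F1D, the delta subunit of the central stalk, at 145 ± 11.95 TPM. ATP5F1B also had the largest count of any member, and counts of members ran from 337 to 22483 per sample. Where a read fits more than 1 transcript, kallisto shares it out by estimation. Of the members, 37 had named pseudogenes in the files, 146 in all. Pseudogenes held at least 1% of the joint count for 3 members, namely SDHA (23.2%), UQCRFS1 (14.7%) and NDUFV2 (1.79%), so the levels of SDHA and UQCRFS1 are less certain than the others.

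**Figure D1:**
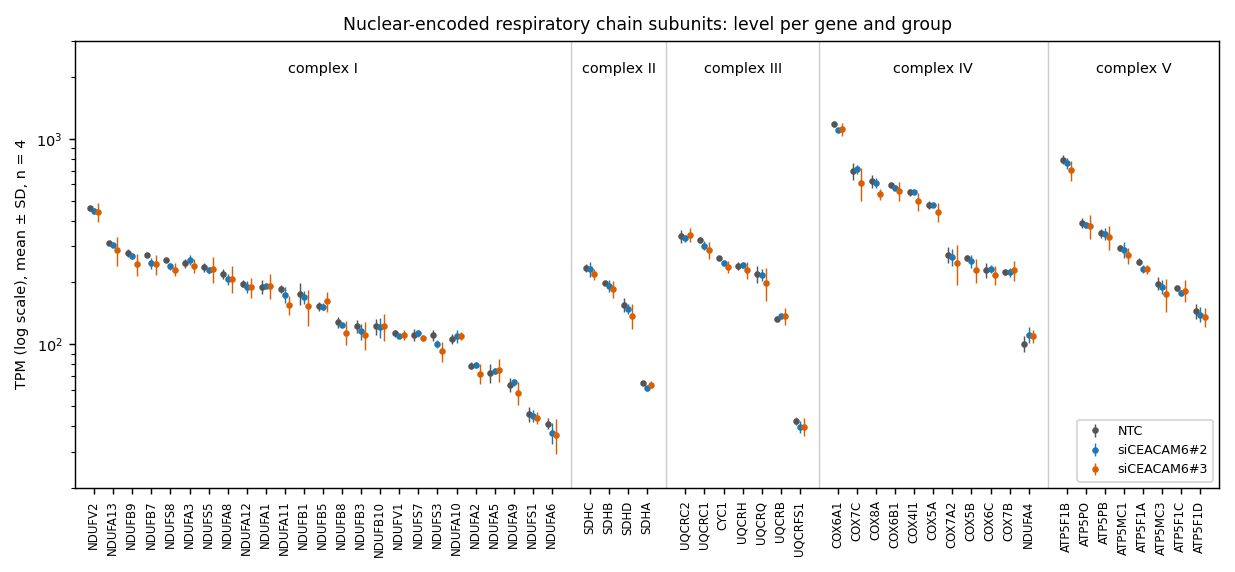
Level of each of the 55 members in TPM (vertical axis, log scale) by complex and group, ordered within a complex by the NTC mean; points are means and bars SD over 4 samples. The groups lie on top of each other for most genes, and the spread is widest with siCEACAM6#3.

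The members varied little between replicates. The coefficient of variation of CPM over the 4 NTC samples had a median of 4.39% and a highest value of 9.30% (NDUFS7). The median was 4.06% with siCEACAM6#2 and 9.57% with siCEACAM6#3. Without siCEACAM6#3 replicate 2 the last value was 6.99%.

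The next question was whether the members differed between each siRNA and NTC. With siCEACAM6#2, 0 of 55 members passed the test (limma-voom, Benjamini-Hochberg adjusted p under 0.05 over all 17620 genes), while 1.25% of all genes did. At an unadjusted p under 0.05 there was 1 member, against 13.6% of all genes. EdgeR and DESeq2 also called 0 members. The fitted log2 fold changes ran from -0.17 to 0.11 with a median of -0.003, and the median of all genes was 0.0002. There were 27 members higher and 28 lower than in NTC.

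The intervals say how large a difference these samples leave room for. The standard errors of the members were 0.04 to 0.11 on the log2 scale. For 53 of 55 members the 95% interval lay within 1.2-fold of NTC in either direction, against 37.7% of all genes, most of which were expressed at lower levels. The exceptions were NDUFA6, with an interval of -0.40 to 0.06, and NDUFA3, an accessory subunit of the membrane arm of complex I, with -0.07 to 0.29.

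The smallest p with siCEACAM6#2 was that of ATP5F1A, the alpha subunit of the ATP synthase (chromosome 18, 46080248 to 46104334, minus strand). It was at 358, 353, 346 and 343 CPM in NTC and at 337, 321, 324 and 334 CPM with siCEACAM6#2, and the groups did not overlap. Its log2 fold change was -0.09 ± 0.04 (SE), with an adjusted p of 0.366 (limma-voom). With siCEACAM6#3 it was at 337, 318, 343 and 326 CPM, just under the NTC samples, with a log2 fold change of -0.08 and an adjusted p of 0.441. Without siCEACAM6#3 replicate 2 that value was -0.06.

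NDUFA10, an accessory subunit of complex I, was at 95.1, 97.7, 93.0 and 96.1 CPM in NTC and at 97.9, 101, 104 and 101 CPM with siCEACAM6#2. All 4 siRNA samples were above the NTC samples, the highest of which came close, and the log2 fold change was 0.08 ± 0.04 (adjusted p = 0.488, limma-voom). SDHA was at 94.1, 95.03, 98.4 and 96.9 CPM in NTC and at 85.7, 94.6, 92.7 and 90.5 CPM with siCEACAM6#2, where the groups overlapped, and its log2 fold change was -0.08 (adjusted p = 0.505, limma-voom). In all, 4 members did not overlap between these groups (ATP5F1A and COX7B lower, COX5A and NDUFA10 higher), against 10.8% of all genes.

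NDUFA6 had the largest fitted difference with siCEACAM6#2, -0.17. Its values were 29.5, 27.1, 29.3 and 26.6 CPM in NTC and 29.5, 23.3, 22.6 and 24.8 CPM with siCEACAM6#2, so that replicate 1 was level with the highest NTC samples and the other 3 were below all of them. NDUFA3 and NDUFA1, both accessory subunits of complex I, had the next largest, 0.11 and 0.09, with adjusted p of 0.644 and 0.628 (limma-voom).

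With siCEACAM6#3, again 0 of 55 members passed the test, and 0.0681% of all genes did. EdgeR and DESeq2 called 0 members as well. At an unadjusted p under 0.05 there were 5 members, all lower than NTC, and 12.5% of all genes. The log2 fold changes ran from -0.18 to 0.12 with a median of -0.05, and 18 members were higher and 37 lower. Without siCEACAM6#3 replicate 2 the median was -0.0007, and 27 members were higher and 28 lower. In that fit 5 members had an unadjusted p under 0.05, 4 higher and 1, COX8A, lower. Of all 17898 genes in it, 784 were higher and 789 lower at that p. With all samples, the interval lay within 1.2-fold for 45 of 55 members, against 37.8% of all genes. Without that library it did so for 48 members and for 6891 of 17898 genes.

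With all samples, the 5 members at an unadjusted p under 0.05 were NDUFA9, NDUFS3, NDUFA11, ATP5F1B and COX8A. NDUFA9, an accessory subunit of complex I (chromosome 12, 4649095 to 4694317, plus strand), was at 47.8, 42.5, 45.4 and 41.4 CPM in NTC and at 44.8, 37.1, 37.8 and 36.6 CPM with siCEACAM6#3. Replicate 1 lay among the NTC samples and the other 3 lay below them. The log2 fold change was -0.18 ± 0.07 (adjusted p = 0.323, limma-voom), and -0.16 without replicate 2.

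NDUFS3, a core subunit of the matrix arm of complex I (chromosome 11, 47565336 to 47584562, plus strand), was at 59.7, 56.7, 59.8 and 54.3 CPM in NTC. It was at 58.4, 49.3, 48.5 and 53.4 CPM with siCEACAM6#3. Its log2 fold change was -0.14 ± 0.06 (adjusted p = 0.366, limma-voom), and -0.11 without replicate 2. NDUFA11, a subunit of the membrane arm (chromosome 19, 5891276 to 5904006, minus strand), was at 56.5, 54.0, 61.3 and 56.4 CPM in NTC and at 51.5, 44.5, 48.9 and 58.6 CPM with siCEACAM6#3. Its log2 fold change of -0.17 ± 0.07 (adjusted p = 0.374, limma-voom) became -0.11 without replicate 2. For both genes, 1 siCEACAM6#3 sample lay inside the NTC range and 3 lay below it.

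ATP5F1B was at 1004, 977, 959 and 924 CPM in NTC and at 989, 793, 868 and 885 CPM with siCEACAM6#3, a log2 fold change of -0.13 ± 0.06 (adjusted p = 0.379, limma-voom), or -0.08 without replicate 2. COX8A, a small subunit of complex IV (chromosome 11, 63974620 to 63976543, plus strand), was at 157, 134, 145 and 139 CPM in NTC. It was at 136, 134, 124 and 135 CPM with siCEACAM6#3, with a log2 fold change of -0.12 ± 0.05 (adjusted p = 0.387, limma-voom), or -0.13 without replicate 2. Of the 55 members, 1 did not overlap between siCEACAM6#3 and NTC (ATP5F1A), against 6.27% of all genes.

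**Figure D2:**
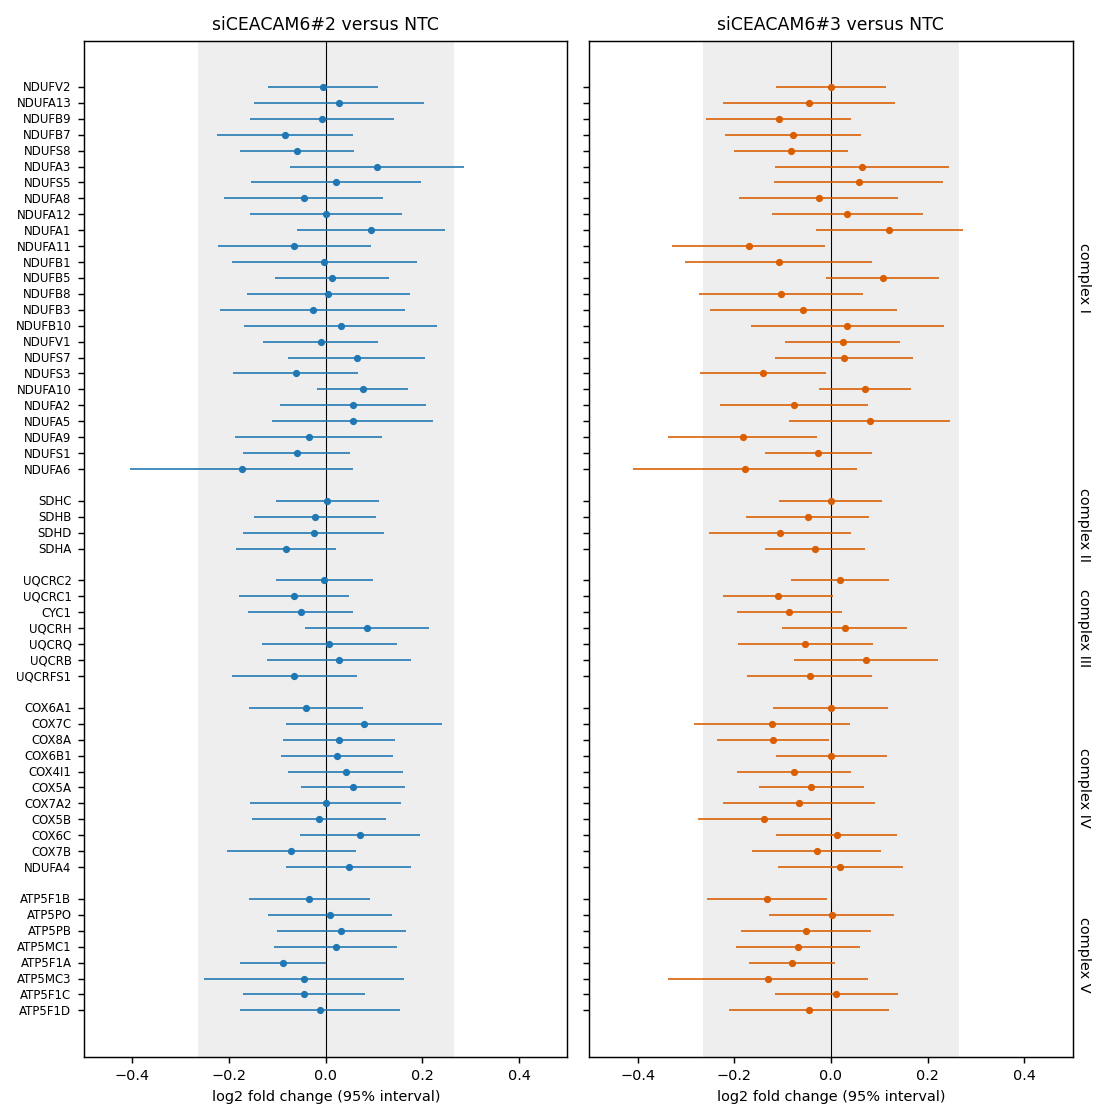
Fitted log2 fold change (horizontal axis) and 95% interval of each member for each siRNA versus NTC, by complex and in order of NTC level; the grey band is 1.2-fold in either direction. The intervals of 53 members with siCEACAM6#2 and of 45 with siCEACAM6#3 lie inside the band, and none passed the adjusted test.

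Across the complexes the medians lay close together. With siCEACAM6#2 they were -0.003 in complex I, -0.02 in complex II, -0.003 in complex III, 0.03 in complex IV and -0.02 in complex V. With siCEACAM6#3 they were -0.03, -0.04, -0.04, -0.04 and -0.06 in the same order. The latter, without siCEACAM6#3 replicate 2, became 0.04, -0.03, 0.006, 0.003 and -0.01. That library was picked out by the low values of the members, so the higher medians follow from that choice. The 6 members of the catalytic core of complex I, which form the path of electrons from NADH towards ubiquinone, had medians of -0.03 and -0.01, the second being 0.01 without that library. No complex held a member that passed the test.

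Both siRNAs target the same gene, and the average of the siRNA groups was compared with NTC in the same fit. Here too 0 of 55 members passed (limma-voom, edgeR and DESeq2), while 0.227% of all genes did. At an unadjusted p under 0.05 there was 1 member, ATP5F1A, at -0.09 ± 0.04 (adjusted p = 0.335, limma-voom), against 12.9% of all genes. The interval of 53 members lay within 1.2-fold, against 46.3% of all genes. NDUFA6 and ATP5MC3, a subunit of the membrane ring of the ATP synthase, were the exceptions. The median was -0.02, with 19 members higher and 36 lower. Leaving out siCEACAM6#3 replicate 2, it was -0.0004, with 27 higher and 28 lower. There were then 3 members at an unadjusted p under 0.05, with NDUFA1 and NDUFA10 higher and ATP5F1A lower, and 54 intervals within 1.2-fold. Of all 17898 genes in that fit, 997 were higher and 1069 lower at that p, and 8488 had intervals within 1.2-fold. Since the same 4 NTC samples serve every comparison with NTC, these are not independent of each other.

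The siRNA groups were then compared directly. In siCEACAM6#3 versus siCEACAM6#2, 0 of 55 members passed (limma-voom, edgeR and DESeq2), while 1.47% of all genes did. There were 2 members at an unadjusted p under 0.05, both of complex IV, and 13.3% of all genes. The median was -0.03, and 19 members were higher and 36 lower. The interval of 47 members lay within 1.2-fold, against 37.9% of all genes. Without siCEACAM6#3 replicate 2 the median was 0.01, with 30 members higher and 25 lower, and 49 intervals within 1.2-fold. At an unadjusted p under 0.05 there were then 4 members higher (ATP5F1C, COX7B, NDUFB5 and UQCRB) and 1 lower (COX8A). Of all 17898 genes in that fit, 1139 were higher and 1104 lower at that p, and 6485 had intervals within 1.2-fold. Leaving out siCEACAM6#3 replicate 1 instead gave a median of the members of -0.06.

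COX8A was at 152, 143, 141 and 149 CPM with siCEACAM6#2, all above the 4 siCEACAM6#3 samples, which reached 136 CPM. The log2 fold change was -0.15 ± 0.05 (adjusted p = 0.232, limma-voom), and -0.16 without siCEACAM6#3 replicate 2. It was the only one of the 55 members whose siRNA groups did not overlap, against 6.68% of all genes. COX7C, another small subunit of complex IV (chromosome 5, 86617928 to 86620962, plus strand), was at 214, 215, 232 and 232 CPM with siCEACAM6#2 and at 229, 181, 199 and 172 CPM with siCEACAM6#3. Replicate 1 of siCEACAM6#3 lay among the siCEACAM6#2 samples. The log2 fold change was -0.20 ± 0.08 (adjusted p = 0.245, limma-voom) and -0.17 without siCEACAM6#3 replicate 2. Without siCEACAM6#3 replicate 1 it was -0.28 with an adjusted p of 0.0251 (limma-voom), the only call of a member in any fit. That fit called 651 of all genes in this contrast, against 259 with all samples.

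COX4I1, the common isoform of subunit 4, was at 254, 258, 251 and 241 CPM with siCEACAM6#2. It was at 250, 209, 224 and 244 CPM with siCEACAM6#3, and the groups overlapped. Of the 11 members of complex IV, 9 were lower with siCEACAM6#3 than with siCEACAM6#2, with a median of -0.07. When siCEACAM6#3 replicate 2 was left out, 7 of 11 were lower and the median was -0.03.

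**Figure D3:**
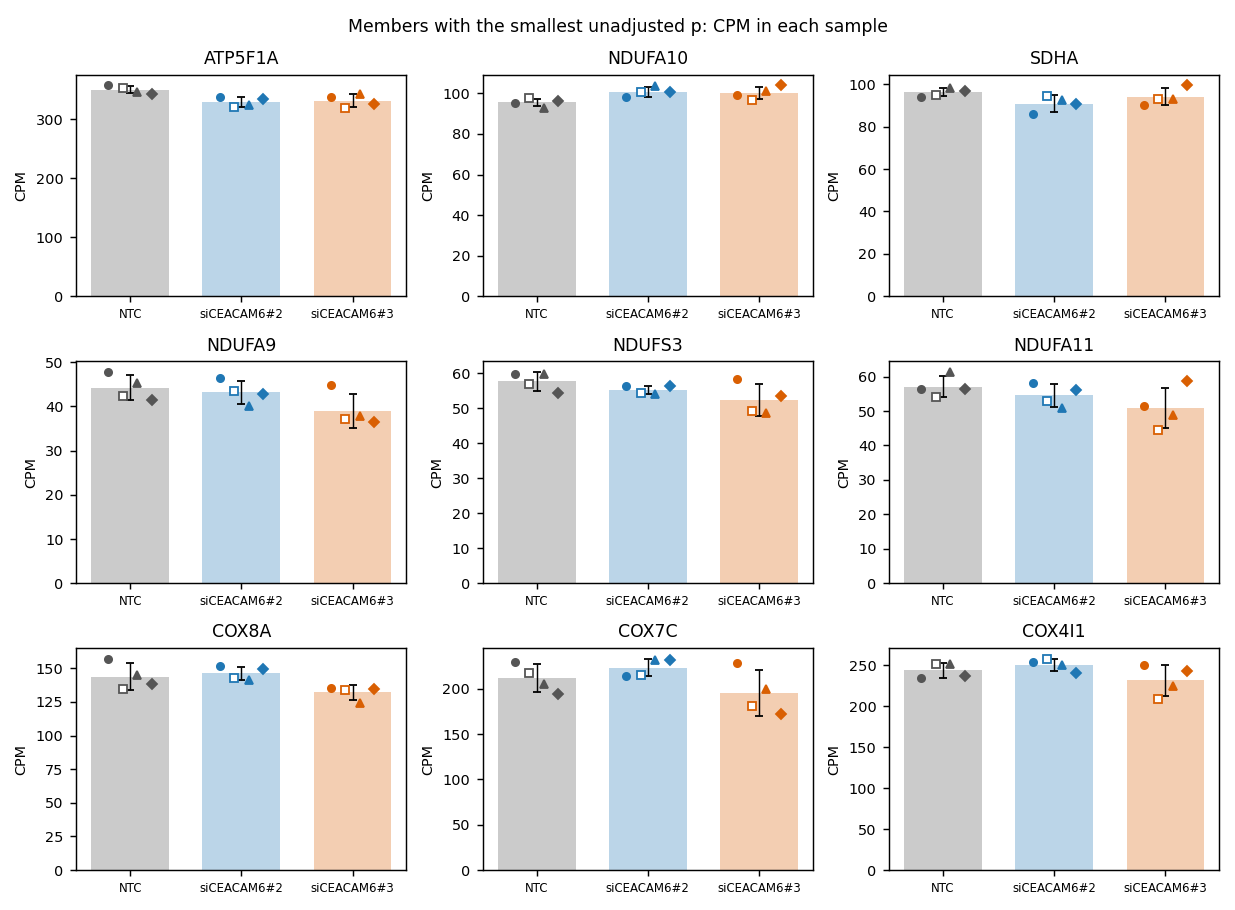
CPM in each sample (vertical axis from 0) of the 9 members with the 3 smallest p in any contrast; bars are group means, error bars SD over 4 samples, and the open square is replicate 2. ATP5F1A is lower in every siRNA sample than in the NTC samples, and COX8A is lower in every siCEACAM6#3 sample than in the siCEACAM6#2 samples.

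The mean level of the members in each sample shows how far single libraries carried these medians. For this, the log2 CPM of each gene was centred on its own mean over the 12 samples, and the centred values were averaged over the members. The NTC samples were at 0.01, 0.03, 0.04 and -0.03, and the siCEACAM6#2 samples at 0.05, 0.01, -0.01 and 0.0007. The siCEACAM6#3 samples were at 0.07, -0.17, -0.03 and 0.02. Replicates 1 and 2 of siCEACAM6#3 were thus the highest and the lowest of the 12 samples, and the other 10 lay between -0.03 and 0.05.

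In siCEACAM6#3 replicate 2, 53 of the 55 members were below their own mean, against 48.6% of all genes tested. The members at their lowest there were 16 of 25 in complex I, 1 of 4 in complex II, 7 of 7 in complex III, 8 of 11 in complex IV and 7 of 8 in complex V. Complex II, with 4 members, had a score of -0.05 in this library, and the other complexes lay between -0.19 and -0.15. The score of complex II in siCEACAM6#3 replicate 4 was -0.06. In siCEACAM6#3 replicate 2 the mitochondrial ribosomal proteins were at -0.19 and the cytosolic ribosomal proteins at -0.12. The score of all members was -0.17 when mitochondrially encoded genes were left out before scaling and -0.21 with no scaling for composition.

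The 13 mitochondrially encoded subunits ran the other way. In the same library 11 of 13 were at their highest of the 12 samples, and their score was 0.32, while the other siCEACAM6#3 samples were at -0.10, 0.15 and 0.20. In siCEACAM6#3 versus NTC all 13 were higher with a median log2 fold change of 0.23, and 0 passed the adjusted test (smallest adjusted p = 0.0910, limma-voom). All 13 had an unadjusted p under 0.05, against 12.5% of all genes. Without siCEACAM6#3 replicate 2 the median was 0.17, and 9 of 13 had an unadjusted p under 0.05. In that fit, 784 of 17898 genes were higher and 789 lower at that p. In TPM, the mitochondrially encoded subunits were 15.4 ± 0.863 times the summed members in NTC, 16.2 ± 1.12 times with siCEACAM6#2 and 18.9 ± 3.38 times with siCEACAM6#3, and replicate 2 of the last was at 23.0. The part that library composition or RNA quality has in these values was not tested.

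**Figure D4:**
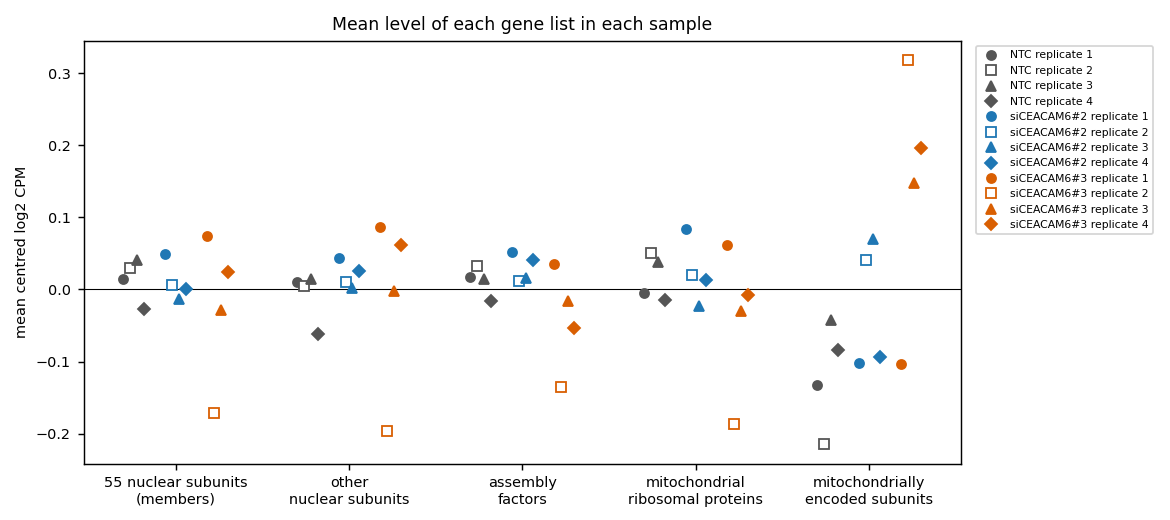
Mean centred log2 CPM (vertical axis) of 5 gene lists in each of the 12 samples; colours are groups, shapes are replicate numbers and the open square is replicate 2. The open orange square, siCEACAM6#3 replicate 2, is lowest for the 4 nuclear lists, at -0.17 for the members, and highest for the mitochondrially encoded subunits, at 0.32.

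Other genes of the pathway were described from lists that had been set by function. Of 25 other nuclear subunits, such as CYCS, the electron carrier between complexes III and IV, 0 passed in any contrast, and the medians were 0.04 with siCEACAM6#2 and -0.01 with siCEACAM6#3, the latter 0.05 without siCEACAM6#3 replicate 2. They shared the low library, since 19 of 25 were at their lowest in siCEACAM6#3 replicate 2. Of 45 assembly factors, which insert cofactors and join subunits, 0 passed in the fit of all 12 samples. Their medians were 0.02 and -0.06 (-0.02 without that library), and 21 were at their lowest there. Of 78 mitochondrial ribosomal proteins, which translate the mitochondrially encoded subunits, 0 passed, with medians of 0.01 and -0.04 (-0.0008 without that library), and 54 were at their lowest there. Of 16 enzymes of the citric acid cycle and the pyruvate dehydrogenase complex, 0 passed in the fit of all 12 samples, and 9 were at their lowest in that library. In the fit without that library, 1 assembly factor and 1 of these enzymes passed in siCEACAM6#2 versus NTC, both lower. Their adjusted p were 0.0486 and 0.0453 (limma-voom), and 322 of 17898 genes passed. With all samples, the smallest adjusted p of these lists in that contrast were 0.0534 and 0.0721 (limma-voom).

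Isoforms and relatives of the subunits, most of them known from particular tissues, were mostly silent. Of 9 listed, 8 were matched in the files and 3 passed the filter on low counts (COX6B2, COX7A2L and NDUFA4L2), of which 0 passed the test. COX4I2, COX7B2 and COX8C, isoforms known from lung or testis, were listed at 0 in all NTC samples. The SNU308 samples thus held the common isoforms COX4I1, COX6A1 and COX8A and little of their counterparts.

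Of 15 transcriptional regulators, 0 passed in any contrast. NRF1, a factor that binds the promoters of many respiratory genes, was at 5.83 ± 0.916 TPM in NTC, with log2 fold changes of -0.10 and -0.07. GABPA, an ETS family factor known for the same role, had changes of -0.06 and 0.05. PPARGC1A, a coactivator that drives mitochondrial biogenesis, was near the lower limit at 0.148 ± 0.123 TPM in NTC, with fitted changes of 0.96 and 0.92 that did not pass (adjusted p = 0.162 and 0.254, limma-voom). Cytosolic ribosomal proteins, another abundant and coordinated class, had a median of 0.12 with siCEACAM6#2, and 2 of 82 passed the test, RPS12 at 0.27 and RPS18 at 0.19, against 1.25% of all genes. With siCEACAM6#3 their median was 0.06 and 0 passed, or 0.09 and 0 without siCEACAM6#3 replicate 2. Between the siRNAs it was -0.08 and 0 passed, or -0.04 and 0 without that library.

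The promoters were read for what the members share in sequence. RefSeq promoter windows on GRCh38.p14, from 250 bases before to 50 after the start, were at hand for 44 members in 50 windows. No window was used for UQCRB, SDHC, NDUFS5, ATP5F1D, ATP5MC3, NDUFA4, NDUFB5, CYC1, NDUFB9, ATP5F1B and COX6C. Motifs were searched as exact letters on both strands, and a gene counted if any of its windows held one. A match describes the letters and is not a bound site.

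The NRF1 core GCGCANGC was found for 20 of 44 members (45.5%), against 23.8% of 12103 tested genes and 14.2% of all 27305 genes with a window. The core CCGGAAG of GABPA and other ETS factors was found for 15 members (34.1%), against 21.0% and 12.2%. The YY1 core AAGATGG was found for 13 members (29.5%), against 8.93% and 7.11%. Its letters include ATG, as in a start codon, and the windows reach 50 bases past the start of transcription. In the windows of NDUFA9 and SDHB the YY1 match lies at bases 261 to 267, past the start of transcription. In both, the ATG within the match opens a reading frame with no stop codon before the window ends. How many of the YY1 matches in the 13 members are start codons was not tested. At least 1 of the NRF1, ETS and YY1 motifs was found for 34 members (77.3%), against 43.97% of tested and 28.4% of all genes. No ETS match overlapped a YY1 match in the members.

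The other motifs were not more frequent among members than among tested genes, or were rare. The SP1 box GGGCGG was found for 28 members (63.6%), against 74.1% of tested genes. The NFY box CCAAT was found for 13 members (29.5%), against 42.5%. The CREB site TGACGTCA was found for 3 members (6.82%) against 3.69%, and the ERRA element TCAAGGTCA for SDHD alone (2.27%) against 0.281%.

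**Figure D5:**
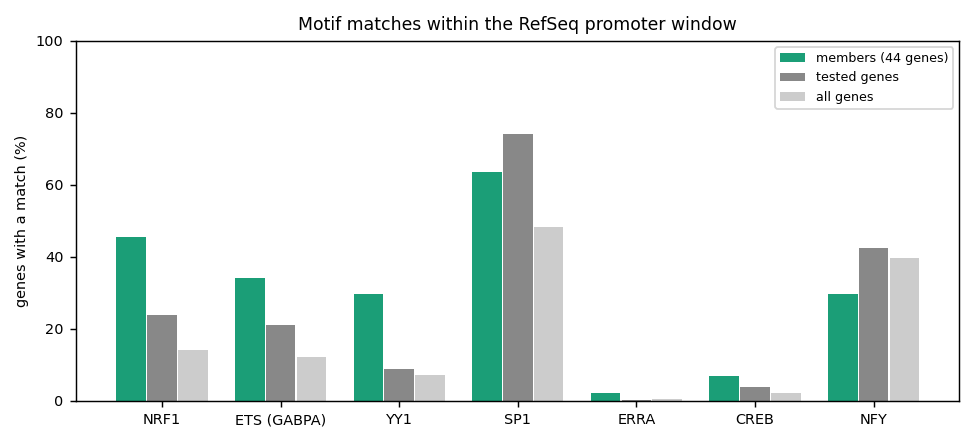
Share of genes (vertical axis, %) with an exact match to each motif in a RefSeq promoter window, for the 44 members with a window, for tested genes and for all genes. The NRF1, ETS and YY1 bars are higher for the members, at 45.5%, 34.1% and 29.5%, and the SP1 and NFY bars are lower than for tested genes.

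The windows of 3 members are shown. NDUFA9 and COX8A had the smallest p in siCEACAM6#3 versus NTC and in the comparison of the siRNAs. ATP5F1A, with the smallest p in siCEACAM6#2 versus NTC and for the average, had more than 1 window and is not shown. SDHB, the iron-sulfur subunit of complex II, was the only member with the NRF1, ETS and YY1 motifs together. Capitals mark the matches. In NDUFA9 (chr12:4648864-4649163, plus strand) they are an NRF1 and a YY1 match. In COX8A (chr11:63974370-63974669, plus strand) they are 2 NFY matches, an SP1 match and an ETS match. In SDHB (chr1:17053983-17054282, minus strand) they are 2 NRF1 matches, then an SP1, an ETS, a CREB and a YY1 match.
NDUFA9: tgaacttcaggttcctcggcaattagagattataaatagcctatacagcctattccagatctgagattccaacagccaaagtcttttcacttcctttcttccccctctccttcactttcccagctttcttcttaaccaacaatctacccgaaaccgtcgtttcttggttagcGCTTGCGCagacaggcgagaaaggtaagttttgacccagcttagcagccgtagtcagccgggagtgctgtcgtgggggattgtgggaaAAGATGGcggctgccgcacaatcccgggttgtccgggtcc
COX8A: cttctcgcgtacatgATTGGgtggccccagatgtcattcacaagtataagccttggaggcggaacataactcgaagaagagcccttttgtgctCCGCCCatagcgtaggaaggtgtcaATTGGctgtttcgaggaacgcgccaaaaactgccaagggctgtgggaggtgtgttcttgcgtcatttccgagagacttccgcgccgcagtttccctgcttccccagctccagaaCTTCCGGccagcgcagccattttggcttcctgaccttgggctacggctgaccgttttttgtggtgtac
SDHB: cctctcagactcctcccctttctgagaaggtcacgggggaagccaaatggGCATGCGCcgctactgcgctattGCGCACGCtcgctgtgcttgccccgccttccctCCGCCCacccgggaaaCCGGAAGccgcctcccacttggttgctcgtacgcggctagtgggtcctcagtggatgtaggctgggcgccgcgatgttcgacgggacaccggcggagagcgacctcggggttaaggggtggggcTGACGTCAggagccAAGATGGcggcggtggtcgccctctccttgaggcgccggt
SDHB was at a level that differed little between groups, and its fitted log2 fold changes were -0.02 with siCEACAM6#2 and -0.05 with siCEACAM6#3, the latter 0.008 without siCEACAM6#3 replicate 2.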

How the data were processed

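Gene expression was profiled by RNA-seq of oligo dT selected RNA in 12 SNU308 samples. In the description of methods, reads were trimmed with trim_galore and quantified with kallisto on GENCODE transcripts of GRCh38.p13. Versions in the submitters' processing notes are Trim Galore 0.6.4 and kallisto 0.4.6. The labels describe paired-end reads and the methods single-end reads, which the gene values do not settle. The authors deposited 1 file of estimated counts and 1 of TPM for each sample, both by gene, and the former carry no scaling for depth. Estimated counts of genes with near copies depend on how kallisto shares reads.

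Counts were rounded and fitted with limma 3.58.1 and edgeR 4.0.16 in R 4.3.3 (filterByExpr by group, TMM, voom, 1 mean per group, no covariates), following the study's use of voom and limma. There were 4 contrasts, adjusted by Benjamini-Hochberg over 17620 genes, with DESeq2 1.42.0 as an alternative. The fit was tested on simulated data. The total count per sample was 21799476 to 22059456, so that counting error was small for the members. Of 60617 identifiers, 60357 (99.6%) matched a symbol. Members were named if they had 1 of the 3 smallest p or 1 of the 3 largest changes in a contrast, or the highest or lowest TPM of a complex. Members and lists were chosen with earlier results of these data known. Gene coordinates and 3' untranslated regions came from GENCODE release 44 on GRCh38, and promoters from RefSeq. The search for motifs and the counts of lowest values per library were added after seeing the data. The replicate numbers did not pair the samples by correlation, and the fits below give them only as an alternative.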

Additional observations from a re-analysis of the deposited data

Results flagged for a closer look

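Among 81 groups of 4 samples tested, 5 held a sample far from the other 3 by Dixon's ratio of the gap to the range, above Dixon's critical value at the 95% level, and chance flags about 5% of groups. The complex IV mean of NTC had a ratio of 0.980, with replicate 4 at -0.04 and the others at 0.03 in centred log2 CPM. NDUFA3 with siCEACAM6#3 had a ratio of 0.893, with replicate 4 at 58.3 CPM and the others at 43.4 to 45.01. NDUFA9 with siCEACAM6#3 had 0.855, with replicate 1 at 44.8 CPM and the others at 36.6 to 37.8. COX8A with siCEACAM6#3 had 0.872, with replicate 3 at 124 CPM and the others at 134 to 136. ATP5F1D with siCEACAM6#2 had 0.837, with replicate 1 at 76.9 CPM and the others at 63.2 to 65.5. These were 5 different libraries, and siCEACAM6#3 replicate 2 was not among them.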

How the results depend on the processing

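The count of members passing the test was 0 in each of the 4 contrasts under 12 alternatives to the design (scaling, filter, test, weights, TPM in place of counts, groups in the fit and the replicate block) and, in the limma-voom fit of the report, at an adjusted p under 0.1. Leaving out each sample in turn gave 0 in all contrasts but siCEACAM6#3 versus siCEACAM6#2, where the count was 0 to 1. COX7C was called there without siCEACAM6#3 replicate 1, in a fit that called 651 of all genes. The medians moved from the reported ones by less than 0.0653, the SD between replicates of the members' mean centred log2 CPM. That SD includes siCEACAM6#3 replicate 2. Some medians, such as that for siCEACAM6#3 versus NTC with TPM, were themselves larger in size than this SD. The counts of intervals within 1.2-fold stayed within 1.5 times of the reported ones except for siCEACAM6#3 versus NTC with TPM in place of counts, where 29 members were within it with either pseudocount against 45, an alternative that was added for this count after seeing the data. For siCEACAM6#3 versus NTC, leaving out samples gave medians of -0.08 to -0.0007 and 38 to 48 members within 1.2-fold. With TPM in place of counts the median was -0.09, and 13 members had an unadjusted p under 0.05. At an adjusted p under 0.1, sample weights gave 3 members in that contrast, 1 for the average and 1 between the siRNAs, and leaving out siCEACAM6#3 replicate 1 gave 3 in that contrast and 3 between the siRNAs. The other fits gave 0. Counts of all genes at these thresholds are not given for these fits. At an adjusted p under 0.05, TPM called 4 of all genes for siCEACAM6#3 versus NTC. Sample weights called 382 in that contrast, 899 for the average and 560 between the siRNAs. Leaving out siCEACAM6#3 replicate 1 called 258 in that contrast and 651 between the siRNAs. The count of all genes called depended more on the fit. It was 221 for siCEACAM6#2 versus NTC and 5 to 1120 over the alternatives, 12 for siCEACAM6#3 versus NTC and 2 to 382, 40 for the average and 2 to 899, and 259 between the siRNAs and 49 to 651. TPM or a left-out sample gave the lowest of these, and sample weights or a left-out siCEACAM6#3 replicate 1 the highest.

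With the replicate number as a replicate block, 0 members were called and the median for siCEACAM6#3 versus NTC was -0.04. Of 12 same-numbered pairs of samples, 2 had deviations correlated over 0.1 (range -0.06 to 0.22), and 4 of 12 samples correlated best with their own number. The medians and calls of the lists other than the members without siCEACAM6#3 replicate 2 were alternatives chosen after seeing the data. The smallest count of a member in any sample was 337, and with 4 samples a group the standard errors of the log2 changes of the members were 0.04 to 0.11 over the 4 contrasts.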
